A study of Mus musculus with 6 samples.

Results

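The genes of DNA replication and S phase were examined in lung group 2 innate lymphoid cells (ILC2s) of SIRPα KO and WT mice. They were 44 genes, picked by name from the 17831 gene columns of the deposited count table, and all 44 were in the table. ILC2s were sorted from the lungs of mice aged 6 to 8 weeks as CD45+, lineage-, CD127+ and ST2+ cells and then cultured with rmIL-2 and rmIL-7. The mice had received 0.5 µg of rmIL-33 intranasally on 3 days, and the sort was on day 4. Culture lasted 18 h or 24 h, since the sources used here differ. The 3 WT libraries are labelled CB57BL/6 and the 3 SIRPα KO libraries SIRPalphatm1Ynliu/J, a germline deletion of the inhibitory receptor SIRPα carried by every cell of the mouse. Both groups had been exposed to IL-33, so the comparison is between activated cells of 2 genotypes and holds no resting control. The question was whether the transcripts that cells use to copy their DNA differed between SIRPα KO and WT ILC2s.

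Replication begins in G1, when the origin recognition complex (ORC), CDC6 and CDT1 load rings of MCM2 to MCM7 onto DNA. In S phase CDC45, GINS and MCM10 turn these rings into active helicases, DNA polymerase α with primase starts each new strand, and polymerases δ and ε, held by the sliding clamp PCNA, extend it. Most of these genes are targets of E2F transcription factors, and their transcripts rise together as a lymphocyte enters the cycle, which is why they are read as a sign of proliferation after IL-33.

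The libraries held 13980499 to 19051507 reads on genes, and the labels do not say that they came from separate cultures or animals, so p values measure the spread between these libraries. The sample codes in the labels are 37, 37V1 and 38 for WT and 43, 44 and 44V1 for SIRPα KO, so each group may hold only 2 samples. Sirpa stood at 8.57, 6.83 and 4.83 CPM (reads scaled by TMM to the same library size) in WT replicates 1, 2 and 3 and at 3.07, 4.46 and 1.74 CPM in the SIRPα KO replicates, and it did not pass the test (log2 fold change -1.12, adjusted p = 0.115 from edgeR). All 14 ILC2 markers were in the table, and their summed level was 15466 to 16645 CPM in WT and 21297 to 21839 in SIRPα KO, with 3 higher and 1 lower. Il5 made up most of the sum in every library, and Id2 went the other way, at 1129 to 1403 CPM in WT and 782 to 849 in SIRPα KO. Markers of B cells summed to 112 to 209 CPM in WT and 16.9 to 35.7 in SIRPα KO, with 4 of 5 tested markers lower, and Igkc made up most of the sum in WT. NK cell markers were at 8.34 to 15.6 CPM in WT and 0.682 to 1.63 in SIRPα KO, with 2 of 4 lower. T cell markers were at 18.3 to 22.1 CPM in WT, nearly all of it Cd3g, and 4.67 to 5.37 CPM in SIRPα KO, with Cd4 listed at 0 in 5 of 6 libraries. Macrophage and monocyte markers summed to 46.1 to 140.2 CPM in WT and 86.3 to 129 in SIRPα KO, with 1 of 8 (Itgam) higher, and Lyz2 was at 82.1 CPM in WT replicate 3 against 21.1 and 22.8 in the other WT libraries. Epithelial and endothelial markers were at 67.7 to 92.5 CPM in WT and 49.2 to 113 in SIRPα KO, with 1 higher and 1 lower of 4 tested. The lineage gate of the sort, which holds CD3ε, TCRβ, B220 and CD335, would remove B, NK and T cells. It also holds CD11b, CD11c and Gr1, which would remove macrophages and monocytes, and FcεRIα, which would remove mast cells and basophils. What part other cells played in the values of the replication genes was not tested.

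As a group, the replication genes did not move in one direction. Of the 44, 6 passed an adjusted p of 0.05 in edgeR's quasi-likelihood test, which is 13.6%, and 11.7% of the 13623 genes tested did so. Orc2 and Pola1 rose in SIRPα KO, and Dut, Pold1, Pcna and Rpa2 fell. Of all genes tested, 5.94% were called higher and 5.81% lower. The median log2 fold change of the 44 was -0.05, with 20 genes above 0 and 24 below, and that of all genes tested was -0.03. WT and SIRPα KO libraries were fully apart for 24 of the 44 genes, 10 higher and 14 lower in SIRPα KO. Over all genes tested 42.8% were, 21.6% higher and 21.2% lower. The share called was close to that of the table as a whole. Their summed level was 8785, 8447 and 7441 CPM in WT replicates 1, 2 and 3 and 8144, 7983 and 7914 CPM in the SIRPα KO replicates, with the groups overlapping. In bulk libraries a smaller share of cycling cells and less of each transcript per cell cannot be told apart.

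**Figure D1:**
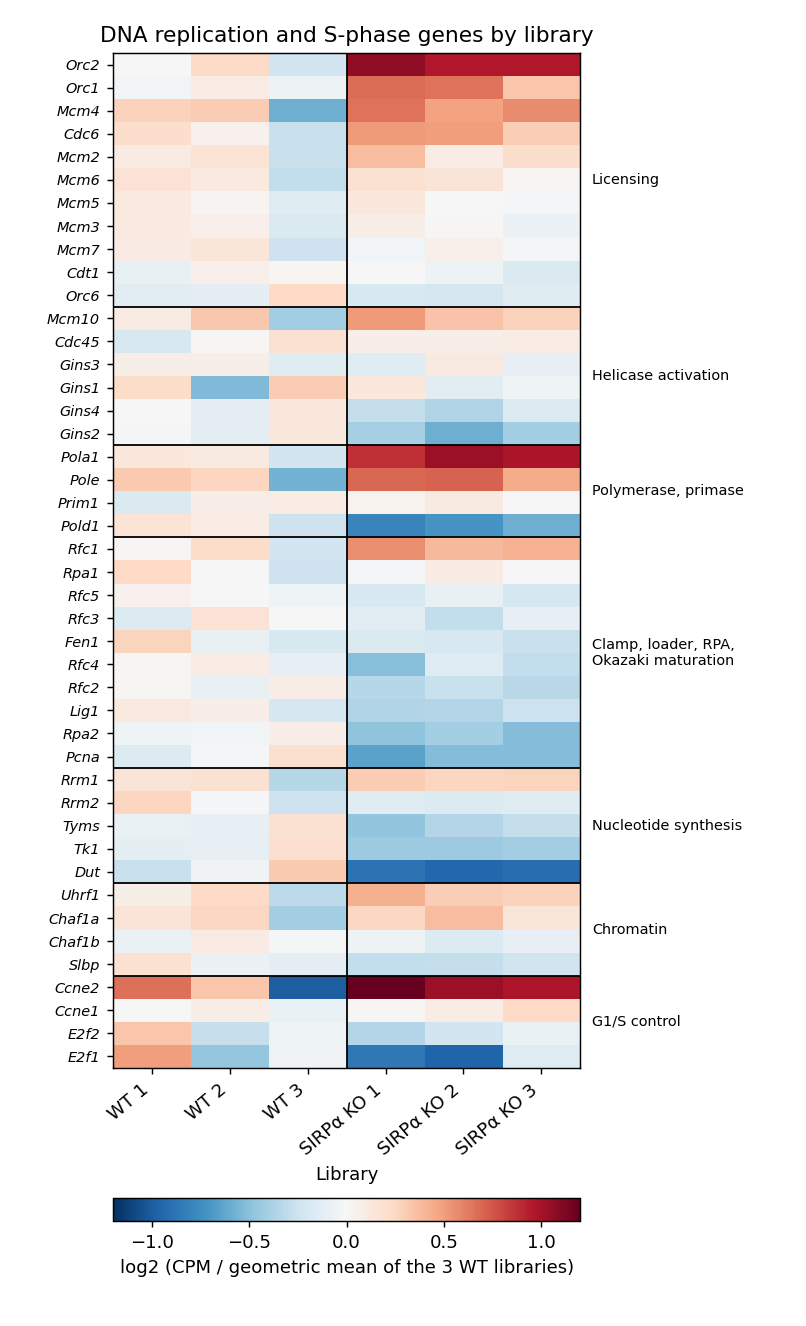
Level of each of the 44 genes (rows, grouped by role) in each of the 6 libraries (columns), as log2 of CPM over the geometric mean of the 3 WT libraries. Orc2 and Pola1 are high and Dut and Pold1 low in all 3 SIRPα KO libraries, most MCM rows are pale, and WT replicate 3 is the lowest library for 20 genes.

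None of the 6 genes passed when any SIRPα KO replicate was left out, when 16 to 17 genes of the whole table (0.112% to 0.120%) passed, nor when libraries with one code were summed, when 10 genes (0.0686%) did. With any 1 of the 6 libraries left out their log2 fold changes stayed at 0.89 to 1.10 for Orc2, 0.86 to 1.02 for Pola1, -1.06 to -0.75 for Dut, -0.81 to -0.62 for Pold1, -0.64 to -0.46 for Pcna and -0.50 to -0.42 for Rpa2. At an unadjusted p under 0.05 there were 17 of the 44 (32.0% of all genes) in the test of all 6 libraries and 13 (23.0% of all genes) with the codes summed. DESeq2 called 14 of the 44, 6 higher and 8 lower, where it called 26.9% of its genes, 14.9% higher and 12.0% lower.

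**Figure D2:**
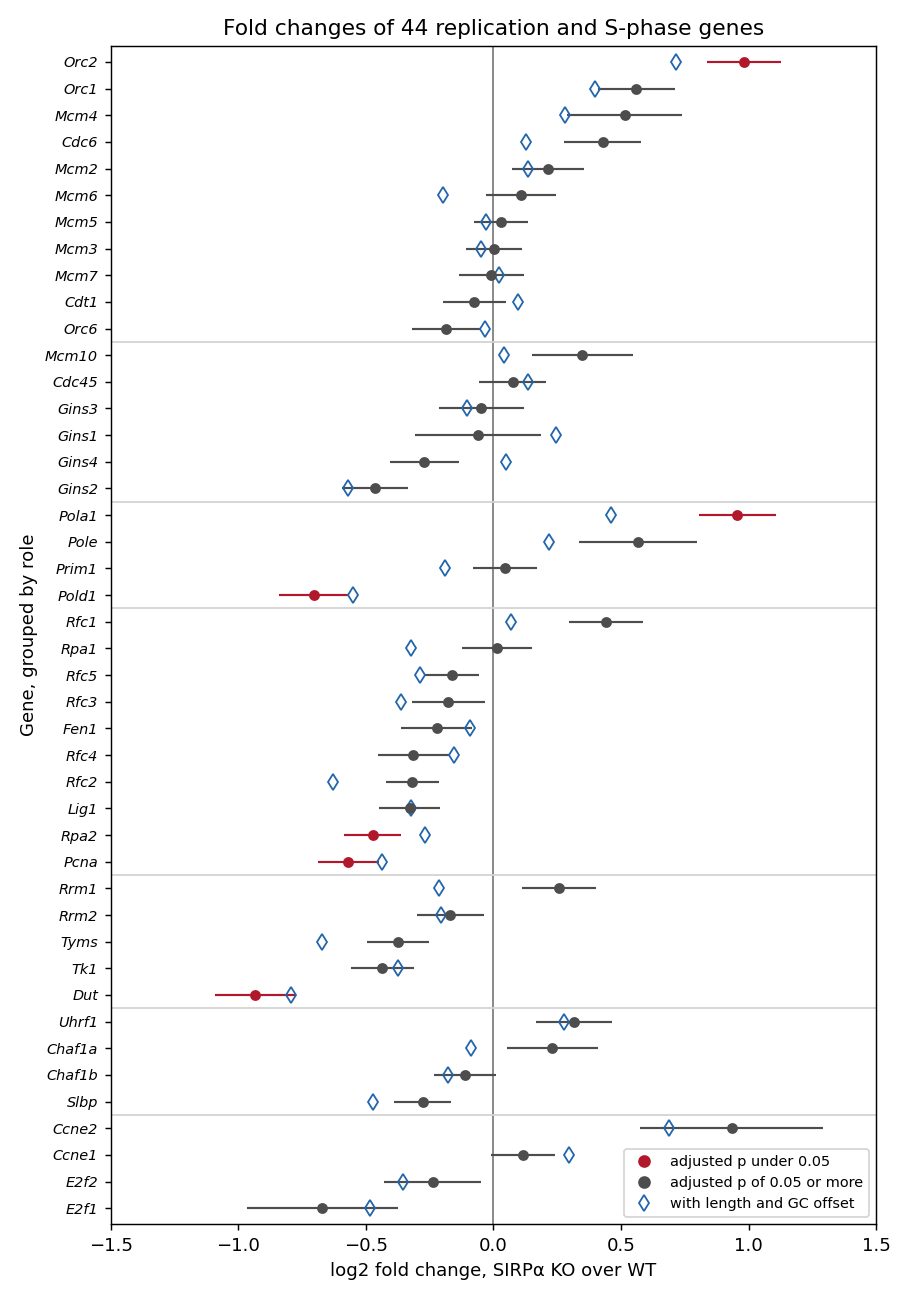
The log2 fold change of each gene, SIRPα KO over WT, with its standard error (circles with bars) and the value after an offset for transcript length and GC content (open diamonds). The 6 red circles passed an adjusted p of 0.05, and they lie on both sides of 0.

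Among the genes of G1/S control, 2 E2F factors and 2 E-type cyclins, none of 4 passed the test. E2f1, the activator that drives entry into S phase, was at 95.5, 49.0 and 65.4 CPM in WT replicates 1, 2 and 3 and 37.1, 34.6 and 60.3 CPM in the SIRPα KO replicates. The groups overlapped, because SIRPα KO replicate 3 lay above WT replicate 2. Its log2 fold change was -0.67 (SE 0.30, adjusted p = 0.165 from edgeR). E2f2, its close relative, was at 37.6 to 57.3 CPM in WT and 35.7 to 43.2 in SIRPα KO (-0.24 on the log2 scale). Ccne1 and Ccne2 encode cyclins E1 and E2, which activate CDK2. Ccne2 was at 65.5, 52.2 and 20.99 CPM in WT and 98.3, 85.1 and 81.6 in SIRPα KO. The groups were apart, with SIRPα KO higher, but WT replicate 3 stood far below the other two, and the log2 fold change of 0.93 (SE 0.36) had an adjusted p of 0.121 from edgeR. Without that library it was 0.59 with an adjusted p of 0.0295. Ccne2 shares 17.4% of its exon bases with Ints8 on the opposite strand, whose log2 fold change was 1.11 (adjusted p = 0.0788 from edgeR), and since use of strand in counting is not stated, reads from the shared stretch cannot be told apart. Ccne1 was at 70.4 to 78.7 CPM in WT and 74.97 to 87.6 in SIRPα KO, and its log2 fold change was 0.11.

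The promoters of the members were read for E2F cores, because E2F sites are what these genes are known to share. RefSeq windows (GRCm38.p6, from 250 bases before to 50 after the start) were given for 37 of the 44. The cores TTTCCCGC and TTTGGCGC were sought on both strands. One or both were found in 11 of the 37 (29.7%), in 3.64% of the 9501 tested genes with a window and in 1.80% of all 27025 genes with one. The CHR element TTTGAA of mitotic genes was in 13.5% of the 37 and 14.6% of the tested genes, and the NF-Y box CCAAT in 64.9% and 43.5%. The 11 genes with a core had log2 fold changes from -0.70 (Pold1) to 0.96 (Pola1), with a median of -0.01. The 26 without one had a median of -0.14. Those with a core did not share a direction. Windows upstream of a RefSeq start are given for Pola1, which rose, and for the licensing genes Cdc6, Mcm5, Mcm6 and Mcm7, which did not pass the test. In GENCODE M21 Cdc6 begins at 98907801 and Mcm7, on the minus strand, at 138172422, so the windows of both lie within the annotated gene. The core is in capitals, and reads GCGGGAAA or GCGCCAAA where it lies on the other strand.
Pola1 (chrX:93632256-93632323, minus strand): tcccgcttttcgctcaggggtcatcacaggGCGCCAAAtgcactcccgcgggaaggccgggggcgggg
Cdc6 (chr11:98907983-98908050, plus strand): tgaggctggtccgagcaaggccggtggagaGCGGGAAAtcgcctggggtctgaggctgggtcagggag
Mcm5 (chr8:75109330-75109397, plus strand): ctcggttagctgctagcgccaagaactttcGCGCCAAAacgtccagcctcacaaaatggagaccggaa
Mcm6 (chr1:128359715-128359845, minus strand): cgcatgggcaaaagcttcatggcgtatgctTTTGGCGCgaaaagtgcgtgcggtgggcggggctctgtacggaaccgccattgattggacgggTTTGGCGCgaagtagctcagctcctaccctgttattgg
Mcm7 (chr5:138172011-138172078, minus strand): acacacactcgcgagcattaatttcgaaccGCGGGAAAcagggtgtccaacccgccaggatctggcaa
Of the stretches printed here Mcm6 alone held a pair of cores, both TTTGGCGC, and its log2 fold change was 0.11. The full window of Mcm3 held 2 cores as well, 19 and 38 bases after the start. A match is a run of letters and was not tested as a bound site.

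Of the 11 licensing genes only Orc2 passed, which is 9.09%, beside the 11.7% of all genes tested. Orc2 encodes a core subunit of the origin recognition complex and lies on chromosome 1 from 58462771 to 58505109 on the minus strand of mm10. It was at 63.3, 74.0 and 54.1 CPM in WT replicates 1, 2 and 3 and 132, 123 and 123 CPM in the SIRPα KO replicates. The SIRPα KO libraries were tightly grouped and all far above WT. Orc2 rose by 0.98 on the log2 scale (SE 0.14, adjusted p = 0.0135 from edgeR), from 63.8 ± 9.94 to 126 ± 5.19 CPM (SD, n = 3). It shares 1150 exon bases (29.8%) with Nif3l1 on the opposite strand. Nif3l1 was at 48.0 to 59.2 CPM in WT and 59.8 to 67.7 in SIRPα KO, below Orc2 in every library except WT replicate 3. Nif3l1 did not pass the test (log2 fold change 0.29). With libraries left out of SIRPα KO the adjusted p of Orc2 was 0.0775 to 0.0994, and with the codes summed it was 0.130.

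Orc1, the subunit whose level rises and falls with the cycle, was at 38.1 to 42.5 CPM in WT and 50.3 to 63.6 in SIRPα KO, with no overlap, and its adjusted p of 0.0506 from edgeR lay just outside the threshold (log2 fold change 0.56). Orc6, which binds the complex more loosely, was at 112 to 145 CPM in WT and 107 to 111 in SIRPα KO (-0.18 on the log2 scale). The other subunits, which complete the complex, were Orc3 (0.83, adjusted p = 0.0975), Orc4 (0.56, adjusted p = 0.0315) and Orc5 (0.78, adjusted p = 0.0268), all from the same edgeR fit. Orc3, Orc4 and Orc5 were added to complete the complex after their values were seen. With them 3 of 6 ORC genes rose, where 5.94% of all genes tested did, and 5 had positive log2 fold changes, with Orc6 as the exception. With the offset for transcript length and GC content, Orc2 alone of the 6 passed. The loaders differed from each other as well. Cdc6 was at 126, 112 and 89.98 CPM in WT and 155, 154 and 133 in SIRPα KO, with no overlap and an adjusted p of 0.0992 from edgeR. Cdt1, its partner in loading, was at 67.9 to 75.5 CPM in WT and 64.0 to 72.5 in SIRPα KO, with overlap.

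None of the genes of the MCM2 to MCM7 ring passed the test. Mcm2 was at 347, 364 and 270.3 CPM in WT replicates 1, 2 and 3 and 419, 344 and 375 CPM in the SIRPα KO replicates. Mcm3 was at 469, 451 and 386 CPM in WT and 457, 437 and 414 in SIRPα KO. Mcm5 was at 464, 438 and 387 CPM in WT and 468, 428 and 421 in SIRPα KO. For these 3 subunits the groups overlapped, with WT replicate 3 the lowest library of all. Their log2 fold changes were 0.21 (SE 0.14), 0.00254 (SE 0.11) and 0.03 (SE 0.11). Mcm6 was at 495, 475 and 358 CPM in WT and 498, 489 and 445 in SIRPα KO. Mcm7 was at 274, 284 and 217 CPM in WT and 251, 267 and 253 in SIRPα KO. Both overlapped between groups, with log2 fold changes of 0.11 (SE 0.14) and -0.01 (SE 0.13). Mcm4 alone of the 6 did not overlap, at 275, 280.2 and 150.4 CPM in WT and 355, 316 and 336 in SIRPα KO. WT replicate 3 was far below the other WT libraries for Mcm4, whose log2 fold change was 0.51 (SE 0.22, adjusted p = 0.158 from edgeR), and 0.28 with an adjusted p of 0.0370 without that library.

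The ring holds one copy of each MCM subunit, so the subunits were also compared per kilobase of the longest annotated transcript. The highest subunit was 1.79, 1.68 and 2.73 times the lowest in WT replicates 1, 2 and 3 and 1.63, 1.45 and 1.46 times in the SIRPα KO replicates. Mcm4 was the lowest subunit in each WT library and in SIRPα KO replicate 2, and Mcm7 in SIRPα KO replicates 1 and 3. The SIRPα KO libraries thus had the more even set, with WT replicate 3 the least even. Which subunit was lowest in SIRPα KO depends on the length used. The longest transcripts of Mcm4 and Mcm7 are 3589 and 2962 nt, and their mean transcript lengths 1557 and 1068 nt. Mcm7 has a near-identical copy, Gm5487 (97.7% identity over 72.8% of the transcript), which was at no more than 9.55 CPM in any library.

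**Figure D3:**
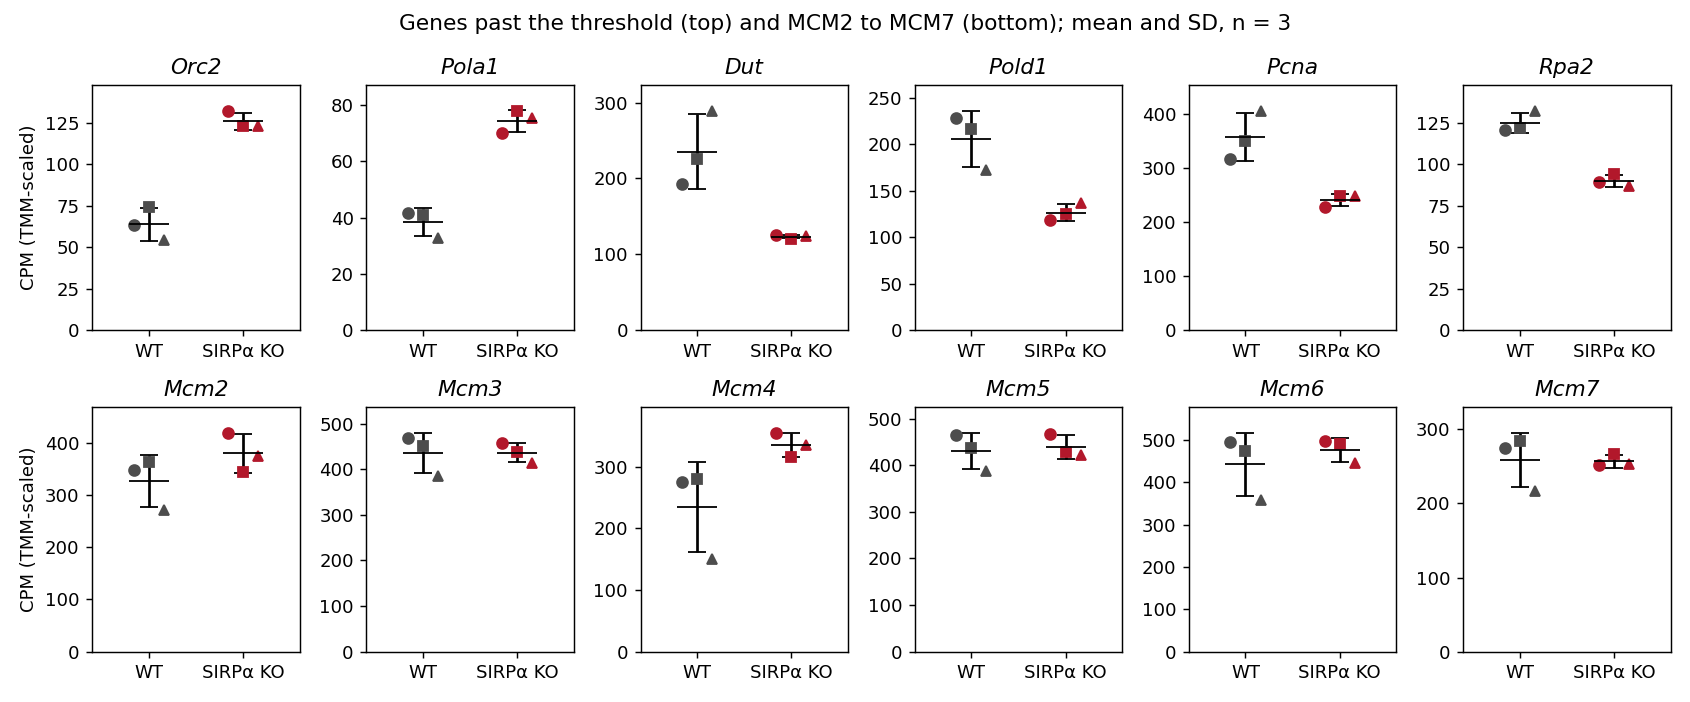
Level in CPM (linear axis from 0) of the 6 genes past the threshold (top row) and of Mcm2 to Mcm7 (bottom row) in replicates 1 (circle), 2 (square) and 3 (triangle) of each group, with the mean and SD (n = 3). The groups are apart for the top row, and in the bottom row they overlap for all but Mcm4.

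Helicase activation was represented by 6 genes, none past the threshold. Gins2 came nearest, with 100.6, 93.2 and 111 CPM in WT and 76.8, 67.5 and 76.6 in SIRPα KO. All SIRPα KO libraries were below all WT libraries, and its log2 fold change was -0.46 (SE 0.13, adjusted p = 0.0542 from edgeR). Gins2 shares 67.3% of its exon bases with Gse1 on the opposite strand, so its reads are uncertain. The other GINS subunits were -0.06 (Gins1), -0.05 (Gins3) and -0.27 (Gins4) on the log2 scale, and only Gins4 did not overlap, at 64.7 to 76.7 CPM in WT and 54.9 to 62.8 in SIRPα KO. Cdc45, the third part of the active helicase, was at 81.4 to 105 CPM in WT and 98.3 to 99.3 in SIRPα KO. Mcm10, which is needed for origin firing, was at 44.6 to 74.4 CPM in WT and 72.2 to 84.6 in SIRPα KO. Both overlapped.

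The polymerase genes differed from each other, with Pola1 higher and Pold1 lower in SIRPα KO. Pola1, the catalytic subunit of polymerase α that extends the primer, lies on chromosome X from 93304767 to 93632155 on the minus strand and was at 41.6, 41.0 and 32.6 CPM in WT replicates 1, 2 and 3 and 70.2, 77.9 and 75.4 CPM in the SIRPα KO replicates. The highest WT library was well under the lowest SIRPα KO library. Pola1 rose by 0.96 on the log2 scale (SE 0.15, adjusted p = 0.0144 from edgeR), and after the offset described further on it was 0.46, with an adjusted p of 0.0545. Pold1, the catalytic subunit of the lagging-strand polymerase δ on chromosome 7 from 44532746 to 44548849 on the minus strand, was at 229, 217 and 172 CPM in WT and 118, 125 and 136 in SIRPα KO. WT replicate 3 was the lowest of WT and still above each SIRPα KO library. Pold1 fell by 0.70 on the log2 scale (SE 0.14, adjusted p = 0.0243 from edgeR), and with the offset the log2 fold change was -0.55 (adjusted p = 0.0271). Pole, the catalytic subunit of the leading-strand polymerase ε, was at 68.1, 65.6 and 37.2 CPM in WT and 88.7, 89.7 and 74.9 in SIRPα KO, with no overlap. WT replicate 3 was low, and the log2 fold change of 0.57 did not pass (adjusted p = 0.139 from edgeR). Prim1, the catalytic primase subunit that works beside Pola1, was at 78.8 to 94.7 CPM in WT and 88.5 to 95.9 in SIRPα KO, with a log2 fold change of 0.05 (SE 0.13).

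None of the other subunits of these enzymes passed the test. Pola2 (-0.01) and Prim2 (0.02) of polymerase α-primase had log2 fold changes near 0. For polymerase δ, Pold2 was at -0.02, Pold3 at 0.36 and Pold4, an accessory subunit, at -0.83 on the log2 scale, with adjusted p values of 0.936, 0.190 and 0.0557 from edgeR. For polymerase ε, Pole2, Pole3 and Pole4 were at 0.17, 0.21 and -0.29, none past the threshold.

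**Figure D4:**
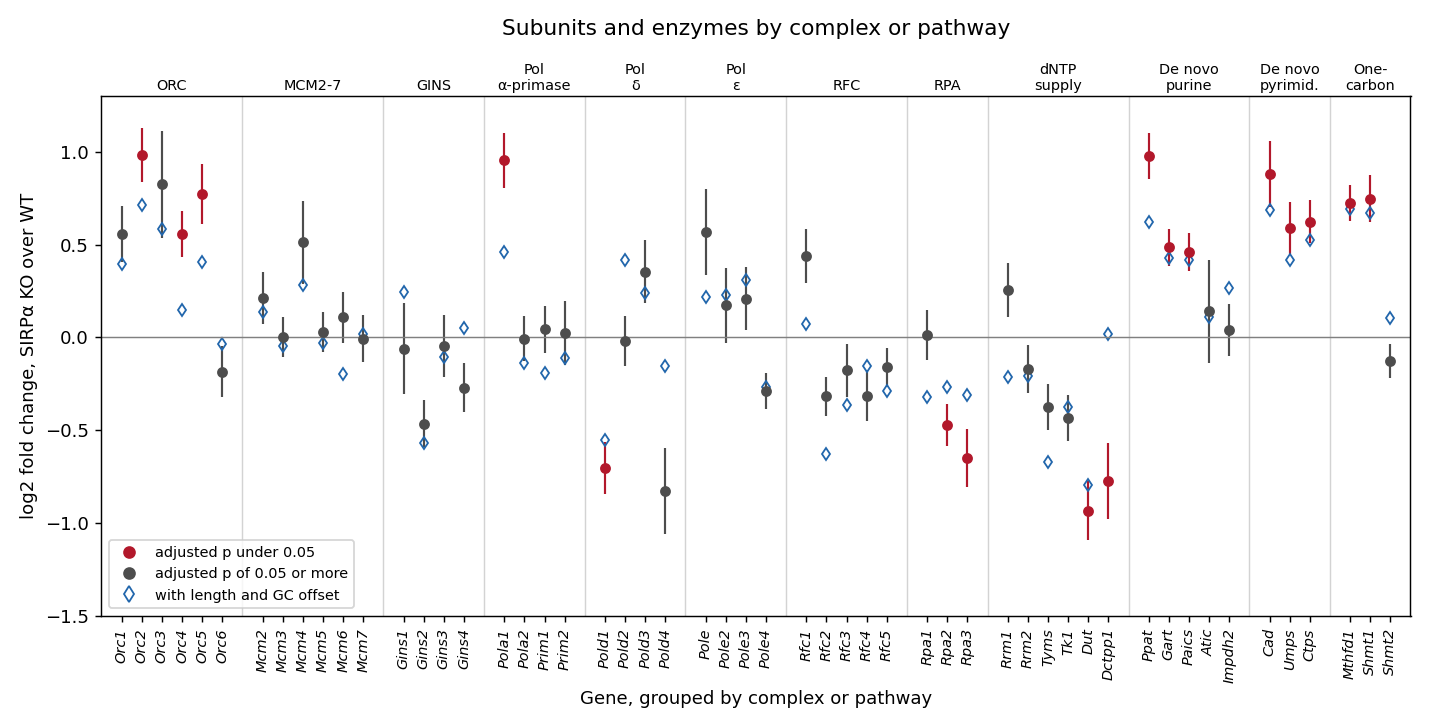
The log2 fold change with its standard error for each subunit or enzyme, grouped by complex or pathway, with the value after the length and GC offset as open diamonds. The circles of one complex lie on both sides of 0 in every complex but GINS, some of them close to 0. In the last 3 groups, which were looked for after the values were seen, 8 of the 11 enzymes are red and above 0.

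The clamp, its loader, the single-strand binding protein RPA and the enzymes that finish Okazaki fragments made up 10 genes, of which 2 fell and none rose, beside 5.81% and 5.94% of all genes tested. Pcna, the sliding clamp, lies on chromosome 2 from 132249162 to 132253314 on the minus strand. It was at 318, 351 and 406 CPM in WT replicates 1, 2 and 3 and 228, 248 and 248 CPM in the SIRPα KO replicates. The groups were apart, and Pcna fell by 0.57 on the log2 scale (SE 0.12, adjusted p = 0.0271 from edgeR). Pcna-ps2, a copy with 99.2% identity over 51.4% of the Pcna transcript, went the other way, with 12.8, 10.5 and 14.6 CPM in WT and 33.7, 32.7 and 33.5 in SIRPα KO (log2 fold change 1.40, adjusted p = 0.0110 from edgeR). Reads can be split between the copy and Pcna. The sum of both was 371 ± 45.7 CPM in WT (SD, n = 3) and 275 ± 11.1 in SIRPα KO, or -0.43 as the log2 ratio of the means, still lower in SIRPα KO.

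Rpa2, the middle subunit of RPA on chromosome 4 from 132768332 to 132778752 on the plus strand, was at 121, 122 and 132 CPM in WT and 89.2, 94.2 and 87.0 in SIRPα KO. Both groups were tight and apart. Rpa2 fell by 0.47 on the log2 scale (SE 0.11, adjusted p = 0.0363 from edgeR), but with the offset its log2 fold change was -0.27 with an adjusted p of 0.116. Rpa3, the smallest subunit, fell by 0.65 (adjusted p = 0.0380 from edgeR), and with the offset it was at -0.31 (adjusted p = 0.201). Rpa1, the largest, was at 267 to 374 CPM in WT and 311 to 338 in SIRPα KO with a log2 fold change of 0.01 (SE 0.14). Rfc1, the large subunit of the clamp loader, was at 85.1, 97.9 and 71.6 CPM in WT and 124, 109.9 and 112 in SIRPα KO. It did not overlap, with SIRPα KO higher, and its adjusted p was 0.0857 from edgeR (log2 fold change 0.44). The 4 small subunits that share the loader with it all had negative log2 fold changes, -0.32 (Rfc2), -0.18 (Rfc3), -0.31 (Rfc4) and -0.16 (Rfc5), none past the threshold. Fen1, the flap nuclease, and Lig1, the ligase that seals the fragments, were at -0.22 and -0.33. Fen1 shares 78.8% of its exon bases with Gm10143 on the opposite strand, so its reads are uncertain, and Gm10143 was at no more than 2.57 CPM in any library. Lig1 did not overlap, at 228 to 284 CPM in WT and 204 to 219 in SIRPα KO (adjusted p = 0.105 from edgeR).

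Of the 5 genes of deoxynucleotide synthesis, Dut fell, where 5.81% of all genes tested did, and 4 had negative log2 fold changes, as did 7030 of the 13623 genes tested. Dut, the dUTPase that keeps uracil out of DNA and makes the dUMP used for thymidylate, lies on chromosome 2 from 125247190 to 125258608 on the plus strand. It was at 193, 225 and 289 CPM in WT replicates 1, 2 and 3 and 126, 121 and 123 CPM in the SIRPα KO replicates. The SIRPα KO libraries were nearly equal, while WT varied and was higher throughout. Dut fell by 0.93 on the log2 scale (SE 0.16, adjusted p = 0.0166 from edgeR), from 236 ± 48.9 to 123 ± 2.55 CPM (SD, n = 3), the largest fall among the 44. Tyms, which makes thymidylate, and Tk1, which salvages thymidine, were both without overlap and lower in SIRPα KO. Tyms was at 196 to 238 CPM in WT and 151 to 173 in SIRPα KO, and Tk1 at 151 to 188 and 120.4 to 122 CPM, with adjusted p values of 0.0827 and 0.0583 from edgeR. The subunits of ribonucleotide reductase, the enzyme that makes deoxynucleotides, lay on opposite sides of 0. Rrm1 was at 461, 469 and 327 CPM in WT and 509.5, 495 and 497 in SIRPα KO, with SIRPα KO above WT. Rrm2 was at 1149.8, 952 and 812 CPM in WT and 867, 859 and 867 in SIRPα KO, with overlap. Neither passed, at 0.26 (SE 0.15) and -0.17 (SE 0.13) on the log2 scale.

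Among the 4 genes of chromatin assembly and maintenance none passed. Uhrf1, which carries DNA methylation across replication, was at 284, 319 and 217 CPM in WT and 362, 332 and 327 in SIRPα KO. It did not overlap and was higher in SIRPα KO (log2 fold change 0.31, adjusted p = 0.188 from edgeR). Slbp, which binds the stem-loop of replication-dependent histone mRNA, was at 414, 349 and 337 CPM in WT and 298, 300.1 and 309 in SIRPα KO. It too did not overlap and was lower in SIRPα KO (log2 fold change -0.28, adjusted p = 0.132 from edgeR). Chaf1a and Chaf1b, the large subunits of the histone chaperone CAF-1, overlapped and were at 0.23 (SE 0.18) and -0.11 (SE 0.12). Chaf1a shares 52.5% of its exon bases with Ubxn6 on the opposite strand.

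Levels differed widely between the members. As CPM per kilobase of the longest annotated transcript, Rrm2 was highest in WT at 443 ± 77.3 (SD, n = 3), followed by Pcna at 236 ± 29.3, and both kept these ranks in SIRPα KO at 394 ± 2.0 and 159 ± 7.57. Next in WT came Mcm5 (127 ± 11.6), Mcm3 (127 ± 12.8), Slbp (126 ± 14.3) and Dut (121 ± 25.1), which did not differ from each other beyond their spread. This order depends on the length used, since with the mean transcript length of each gene Mcm5 had rank 9 and Dut rank 8, while Rrm2 and Pcna stayed first and second. Dut went from rank 6 of 44 in WT to rank 16 in SIRPα KO, at 63.2 ± 1.31. The lowest in WT were Pola1 (7.18 ± 0.944), Pole (7.95 ± 2.40), E2f2 (9.76 ± 2.12) and Gins3 (10.7 ± 0.923). Pola1 and Pole were within each other's spread. In SIRPα KO Pola1 stood at 13.9 ± 0.739, above Gins3 and E2f2.

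Where partners lay on opposite sides of 0 or differed widely, the ratio of their levels per kilobase was taken in each library. Pola1 over Prim1 was 0.201 to 0.309 in WT and 0.447 to 0.499 in SIRPα KO. Pole over Pold1 was 0.106 to 0.148 in WT and 0.268 to 0.367 in SIRPα KO. Orc2 over Orc6 was 0.153 to 0.268 in WT and 0.457 to 0.502 in SIRPα KO. These pairs separated the groups clearly, as did Rfc1 over the mean of Rfc2 to Rfc5, at 0.363 to 0.473 in WT and 0.619 to 0.771 in SIRPα KO. Rrm1 over Rrm2 was 0.161 to 0.197 in WT and 0.230 to 0.235 in SIRPα KO. The pairs were chosen after their values were seen, so the ratios are a description with no test. In each pair the numerator has the longer transcript, and Rfc1 has a longer one than Rfc3, Rfc4 and Rfc5, though not Rfc2. With the offset for length and GC content Rfc1 was at 0.07, and Rrm1 and Rrm2 had nearly equal log2 fold changes, -0.21 and -0.21.

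Fold changes of the members followed transcript length, as they did over the table. Among the 22 members with the shorter transcripts the median log2 fold change was -0.17 and 17 were below 0. Among the 22 with the longer it was 0.16 and 7 were below 0. Spearman's rho of log2 fold change with length was 0.47 across the 44 genes and 0.52 across 9124 genes whose mean log2 CPM was 3 or more, which are not independent points and share the same 6 libraries. Over those genes the median went from -0.55 in the decile with the shortest transcripts to 0.47 in that with the longest. For 25 of the 44 the log2 fold change lay within the middle 50% of genes of their length, while 7 were above it and 12 below. Orc2 (3561 nt), Pola1 (5346 nt) and Ccne2 (3006 nt) were among those above, and Pold1 (3496 nt), Dut (1950 nt) and Pcna (1518 nt) among those below. Rpa2 (1813 nt) was inside.

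**Figure D5:**
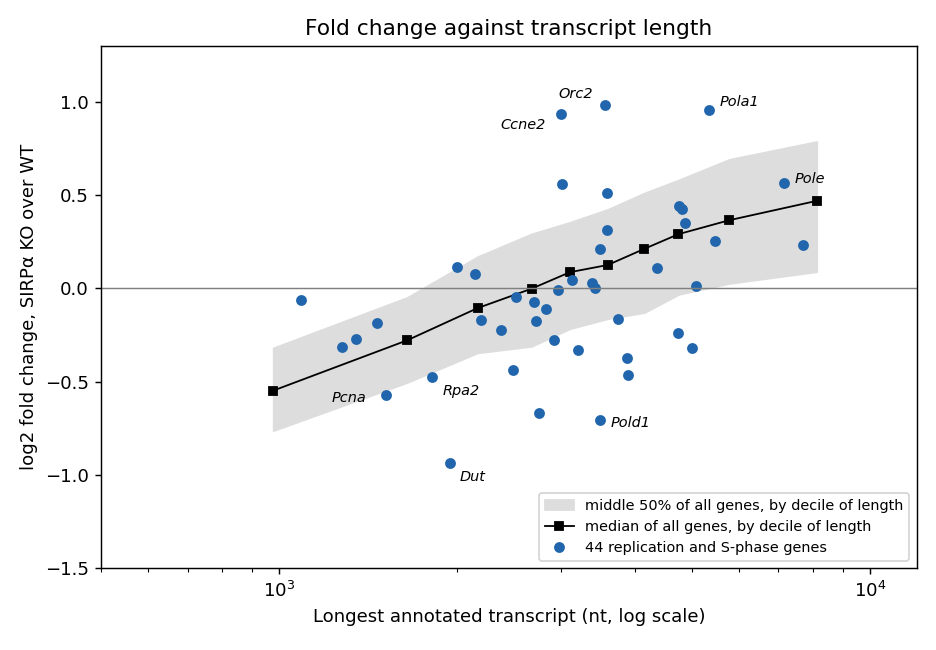
The log2 fold change of each of the 44 genes (blue) against its longest annotated transcript (log axis), with the median (line) and middle 50% (band) of all genes whose mean log2 CPM was 3 or more, by decile of length. The median of all genes climbs from -0.55 to 0.47, and Orc2, Pola1, Dut and Pold1 are among the genes outside the band.

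An offset for length and GC content, fitted on genes outside the lists, was therefore run beside each value. With it 7 of the 44 passed, 1 higher and 6 lower, beside 8.91% of all genes (4.12% higher and 4.79% lower), and 4 of them (Orc2, Dut, Pold1 and Pcna) had passed without it. Orc2 was at 0.71 (adjusted p = 0.0117), Dut at -0.79 (adjusted p = 0.0141) and Pcna at -0.44 (adjusted p = 0.0243) on the log2 scale in that edgeR fit. Tyms (-0.67, adjusted p = 0.0484), Rfc2 (-0.63, adjusted p = 0.0449) and Slbp (-0.47, adjusted p = 0.0220) passed only with it, and 11 members, none of them called in either fit, changed sign. The offset used the longest annotated transcript, 3884 nt for Tyms and 4995 nt for Rfc2, beside mean transcript lengths of 1501 and 1476 nt. Another length was not tested. Rfc2 also shares 15.1% of its exon bases with Lat2 on the opposite strand, which was at 140 to 170 CPM, so its reads are uncertain. Rfc1 went from 0.44 to 0.07 and Rrm1 from 0.26 to -0.21. Spearman's rho with length was then 0.03 across the 44. All 5 genes of deoxynucleotide synthesis were below 0 with the offset.

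WT replicate 3 stood apart from the other WT libraries for these genes. It was the lowest of the 6 libraries for 20 members and the highest for 11, together 70.5%, and 64.9% of all genes tested had it at either end. The median absolute log2 difference over the members was 0.33 between WT replicates 1 and 3, 0.26 between 2 and 3 and 0.11 between 1 and 2, and it was 0.09 to 0.10 between SIRPα KO libraries. The coefficient of variation was larger in WT than in SIRPα KO for 38 of the 44, with medians of 13.6% and 5.74%. Over all genes tested the medians were 25.1% in WT and 11.1% in SIRPα KO, so the wider spread in WT was not particular to the members. Without WT replicate 3, 14 of the 44 passed in edgeR, 5 higher and 9 lower, where 18.4% of all genes did (10.4% higher and 8.07% lower). All 6 genes called with every library were among them. That fit leaves WT with the code 37 alone.

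Other genes of the pathway were taken from a list written by role, with earlier results of these data known. Shares of such a list past the threshold are therefore a description with no test. Of 68 other replication genes 14 rose and 5 fell, or 27.9% in all, beside the 11.7% of all genes tested. The members with the smallest adjusted p upward were all enzymes of nucleotide and folate metabolism. Ppat, the first enzyme of purine synthesis, was at 72.9, 82.1 and 67.3 CPM in WT and 153, 144 and 141 in SIRPα KO and rose by 0.98 in log2 (adjusted p = 0.00955 from edgeR). Mthfd1, which supplies one-carbon units, was at 163, 173 and 172 CPM in WT and 271, 294 and 276 in SIRPα KO and rose by 0.73 (adjusted p = 0.0116 from edgeR). In both, the SIRPα KO libraries lay far above WT. Shmt1 (0.75), Cad (0.88) and Ctps (0.63) rose as well. Looking for this group after the values were seen, 8 of 11 enzymes of de novo purine, pyrimidine and folate metabolism had risen, Gart (0.49), Paics (0.46) and Umps (0.59) included, and none had fallen. With the offset 7 of the 11 passed, all higher, beside 4.12% of all genes called higher in that fit. Atic (0.14), Impdh2 (0.04) and Shmt2 (-0.13) did not pass. Of Rrm1, Rrm2, Tyms, Tk1 and Dut, the members that make deoxynucleotides, none rose.

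The 5 that fell in that list were Pclaf (346, 339 and 391 CPM in WT and 207, 204 and 218 in SIRPα KO), which binds PCNA, and Rnaseh2c, Dctpp1, Rpa3 and Asf1b, a histone chaperone, with log2 fold changes of -0.78, -1.14, -0.77, -0.65 and -0.38. With the offset Pclaf (-0.93, adjusted p = 0.00462) and Rnaseh2c (-0.54, adjusted p = 0.0499) passed in edgeR, Rnaseh2c with a much smaller log2 fold change, while Dctpp1 was at 0.02. Of 26 other G1/S genes, E2f7, a repressor of E2F targets, rose by 0.65, and Cdkn1a, the CDK inhibitor p21, and Cks1b fell by 0.59 and 0.58 on the log2 scale, which is 11.5% of the list and close to all genes tested. With the offset Cdkn1a alone of these passed, at -0.37 (adjusted p = 0.0332 from edgeR), while E2f7 was at 0.31 and Cks1b at -0.12. Of 26 genes of the replication checkpoint and S-phase repair, 3 rose and none fell, or 11.5% in all, beside the 11.7% of all genes tested. They were the checkpoint kinase Atr (10.0, 15.6 and 16.6 CPM in WT and 40.7, 59.3 and 44.4 in SIRPα KO, log2 fold change 1.78), its activator Etaa1 (0.94) and the mismatch repair gene Msh6 (0.84). With the offset Msh6 alone of the 3 passed, while Atr was at 1.14 (adjusted p = 0.0552) and Etaa1 at 0.56 (adjusted p = 0.0873) in edgeR.

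Mitosis genes were set beside them as the division stage of the cycle, in a list also written with earlier results known. Of 35, Bub1, a spindle checkpoint kinase, rose by 0.53, and Ube2c, Cenpa, Birc5, Ccnb2 and Cdca8 fell by 0.81, 0.75, 0.75, 0.65 and 0.45 on the log2 scale. These 6 are 17.1% of the list, beside the 11.7% of all genes. With the offset 11 of 35 passed (31.4%, beside 8.91% of all genes), all lower. Ccnb2 (-0.44) and Bub1 (0.23) were not among them. Mki67, the usual marker of cycling cells, was at 179, 278 and 188 CPM in WT replicates 1, 2 and 3 and 259, 285 and 232 CPM in the SIRPα KO replicates. Top2a, the topoisomerase of S phase and mitosis, was at 283, 372 and 244 CPM in WT and 364, 392 and 352 in SIRPα KO. Both overlapped between groups and did not pass (log2 fold changes 0.27 and 0.30, adjusted p = 0.348 and 0.230 from edgeR), and with the offset their log2 fold changes were -0.25 and -0.16, of the opposite sign.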

How the data were processed

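Bulk RNAseq libraries were made from 10 pg of RNA with a SMARTer ultra-low-input kit that does not mark strand, and whether strand was used in counting is not stated. Per the submitters' processing notes, the authors used Partek 10.0 and STAR 2.7.8 (the study's methods name other versions of both), and the reads were aligned to mm10 with GENCODE M21. The deposited values are estimated counts per gene, not scaled for library size. Between 56.9% and 60.7% of them were whole in each library, and no gene had a total under 10. The record of columns lists 263 gene columns singly, and the other 17568 hold the same unit.

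Estimated counts were rounded, passed through filterByExpr (minimum count 10, minimum total 15), given TMM factors and compared by genotype over all 6 libraries with the quasi-likelihood test of edgeR 4.0.16, adjusted by Benjamini-Hochberg over 13623 genes (threshold 0.05). Other software was DESeq2 1.42.0, limma 3.58.1, BLAST+ 2.17.0, R 4.3.3, Python 3.11.15, pandas 2.3.3 and matplotlib 3.10.9. The standard error came from the F statistic. All 44 genes passed the filter, with 207 to 19997 reads per library. edgeR's coefficient of biological variation was 15.2% in SIRPα KO and 38.0% in WT. Of the symbols, 17400 matched GENCODE M21, another 188 did through a synonym and 243 did not. The offset was a spline with 5 degrees of freedom for length and for GC content, fitted to 8786 genes. A copy was another gene's transcript that covered 50% or more of a member's transcript at 95% identity or more. The members and lists were chosen with earlier results of these data known, and no list was given a test. Named in full were members past the threshold and Mcm2 to Mcm7, the others by range, and of each further list at most the 5 with the smallest adjusted p in each direction, with Mki67 and Top2a. Subunits that complete a complex and the nucleotide enzymes beyond that rule were added after their values were seen. Alternatives were DESeq2, other scalings and filters, summing libraries that share a code, a replicate block, the offset and leaving out each library. The procedures were tested on simulated data. A gene of the list of other replication genes is counted in that list but is not reported here, nor is it among the nucleotide enzymes. Protein sequences were not used here.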

Additional observations from a re-analysis of the deposited data

How the results depend on the processing

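Adjusted p values of edgeR or DESeq2 decided the counts here, each as called higher plus lower. With DESeq2, 3214 of all genes, 14 of the 44 members, 30 other replication, 7 other G1/S, 7 checkpoint and 11 mitosis genes passed. With the codes summed, which leaves 2 samples a group, it was 10 of all genes and 0 of each list in edgeR, where 13 members and 3359 of 14581 genes (23.0%) were at an unadjusted p under 0.05. The cause was not tested for the other counts. The offset left 11 other replication, 1 other G1/S and 1 checkpoint gene and gave 11 mitosis genes. The offset with the replicate block left 387 of all genes, 2 members, 3 other replication, 5 mitosis, 0 other G1/S and 0 checkpoint genes. The replicate block alone left 1118 genes and 5 members (2 higher, 3 lower), and Rpa2 no longer passed. Same-numbered libraries deviated together with r of -0.14, 0.18 and 0.03, so the numbers were not taken as pairs. Over the fits without each library in turn the counts were 16 to 2606 for all genes, 0 to 14 for members, 0 to 27 for other replication, 0 to 7 for other G1/S, 0 to 6 for checkpoint and 0 to 10 for mitosis genes, and 0 of every list without any one SIRPα KO replicate. Upper quartile factors moved the median log2 fold change of all genes from -0.03 to -0.13 and that of the members to -0.16, with 7 of 9 calls lower, against 4 of 6. Leaving out a library gave member medians of -0.08 to -0.02. Orc2 and Dut passed under 11 of 15 alternatives, Pcna under 10, Pold1 and Pola1 under 9 and Rpa2 under 6, and each kept its sign in all 15.

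The cause was not tested for log2 fold changes that had the opposite sign to the value above. With DESeq2 these were Mcm7 (0.016). With upper quartile factors these were Mcm3 (-0.094), Mcm5 (-0.067), Cdc45 (-0.031), Prim1 (-0.059) and Rpa1 (-0.081). With no filter on low counts these were Mcm7 (0.013). With a filter of 1 CPM in 3 libraries these were Mcm3 (-0.0093). With the replicate block these were Mcm7 (0.0014). With the codes summed these were Mcm7 (0.057). With the offset these were Cdt1 (0.10), Mcm3 (-0.048), Mcm5 (-0.030), Mcm6 (-0.20), Mcm7 (0.021), Gins1 (0.25), Gins4 (0.051), Prim1 (-0.19), Rpa1 (-0.32), Rrm1 (-0.21), Chaf1a (-0.086), Dctpp1 (0.020), Mki67 (-0.25) and Top2a (-0.16). With the offset and the replicate block these were Cdt1 (0.10), Mcm3 (-0.049), Mcm5 (-0.031), Mcm6 (-0.20), Mcm7 (0.027), Gins1 (0.28), Gins4 (0.051), Prim1 (-0.18), Rpa1 (-0.32), Rrm1 (-0.21), Chaf1a (-0.086), Dctpp1 (0.018), Mki67 (-0.24) and Top2a (-0.15). Leaving out each library in turn gave log2 fold changes of -0.070 to 0.064 for Mcm3, -0.032 to 0.094 for Mcm5, -0.015 to 0.20 for Mcm6, -0.11 to 0.067 for Mcm7, -0.011 to 0.18 for Cdc45, -0.28 to 0.10 for Gins1, -0.12 to 0.0083 for Gins3, -0.033 to 0.10 for Prim1 and -0.093 to 0.15 for Rpa1. Of the genes in this paragraph only Dctpp1 had passed the test. Differences of this size were not resolved with 3 libraries a group.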

Other observations

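Of 12 housekeeping genes listed for comparison, 2 passed in edgeR, both lower in SIRPα KO, which is 16.7% beside 11.7% of all genes tested. Ppia, which encodes cyclophilin A, was at 3509.9, 3402 and 4675 CPM in WT replicates 1, 2 and 3 and 2183, 2328 and 2329 CPM in the SIRPα KO replicates, and B2m, the light chain of MHC class I, at 2325, 2609 and 2687 and 1873, 1783 and 1971 CPM. The groups did not overlap for either gene. The fall of Ppia, 0.76 on the log2 scale, was larger than those of Pcna and Pold1, and that of B2m, 0.44, was smaller than both. With the offset for length and GC content Ppia was at -0.84 (adjusted p = 0.0179 from edgeR) and B2m at -0.15 (adjusted p = 0.366).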
